A study of Homo sapiens with 6 samples.

Results

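NFE2L2, the gene of the transcription factor NRF2, and 7 genes known as its targets (SQSTM1, OSGIN1, GSR, NQO1, HMOX1, PGD and ABCC3) were followed in Huh7 cells given GABA and in control Huh7 cells. These 8 genes were found by symbol among the 5187 genes that the count files list, and all 8 were present. They were chosen with the difference between GABA and control in view, HMOX1 and PGD being included because they went the other way. Their differences between the groups are therefore descriptions and carry no test. Huh7 is an established line from a human hepatocellular carcinoma. The GABA group held 3 libraries from cultures with GABA (gamma-aminobutyric acid) for 24 h, and the control group held 3 libraries from cultures without it. Both groups were grown in DMEM with serum and antibiotics, total RNA was used for the libraries, and the labels give no GABA dose. The libraries are labelled as biological replicates 1, 2 and 3 of each group. Nothing says how far the cultures were separate, so the errors below measure the spread between these libraries.

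NRF2 is held at low levels by KEAP1, an adaptor of the CUL3 ubiquitin ligase that marks it for degradation. Oxidants and electrophiles modify KEAP1, and NRF2 then pairs with small MAF proteins on antioxidant response elements. Its targets rebuild glutathione, reduce quinones and peroxides, supply NADPH, handle heme and iron and export conjugates, which are central tasks of liver cells. p62, the product of SQSTM1, binds KEAP1 and carries it to autophagy, and SQSTM1 is itself an NRF2 target. BACH1 competes for the same DNA elements and is a strong repressor of HMOX1. NRF2 is regulated largely at the protein level, which RNA counts do not measure.

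The listed genes follow the comparison itself. Across genes, file position and the p-value of the comparison correlated with a Spearman coefficient of 0.93, and the smallest absolute log2 fold change of any tested gene was 0.12. Adjusted p-values, from the quasi-likelihood F test of edgeR with Benjamini-Hochberg adjustment over the 4981 tested genes, are thus descriptions of a preselected set. Counts on listed genes summed to 7719243 to 8392945 in GABA libraries and to 7702666 to 8235028 in control libraries. Control replicate 3 stood apart. The chi-square per gene between it and control replicates 1 and 2 was 17.5 and 25.2, against 5.30 between those 2 libraries and 2.67 to 4.33 between pairs of GABA libraries. Mitochondrially encoded genes took 6.66% to 7.04% of counts in GABA libraries, against 9.11% in control replicate 3 and 7.74% and 7.14% in control replicates 1 and 2. None of 20 hepatocyte markers, 6 endothelial markers and 7 immune markers is among the genes analysed here, so the labelled cell type was not checked. Of markers of other cells, 3 of 6 of kidney or cervix lines, 3 of 10 of fibroblasts and 3 of 5 of neurons were listed. In all 9 the GABA and control libraries did not overlap, as in 92.5% of all tested genes, so nothing is read from that count. PAX2, HOXB7, HOXB9, COL3A1, THY1 and SYP were higher with GABA, and PDGFRB, MAP2 and SNAP25 were lower, at log2 fold changes between -0.99 (PDGFRB) and 0.87 (PAX2). The summed level of the kidney or cervix markers was 405 to 421 CPM in GABA libraries and 345 to 352 CPM in control libraries (CPM are read counts scaled to a common library total). That of the fibroblast markers was 141.0 to 141.2 CPM in GABA libraries and 119.6 to 140.9 CPM in control libraries, and that of the neuronal markers was 27.6 to 31.5 CPM in GABA libraries and 31.1 to 36.9 CPM in control libraries. Their part in the results below was not tested.

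Of the 8 genes, 6 were lower and 2 higher in GABA cells. The 6 lower ones were NFE2L2, SQSTM1, OSGIN1, GSR, NQO1 and ABCC3, at 0.395 to 0.791 times the control mean. HMOX1 and PGD were at 1.41 and 1.38 times the control mean. In all 8 the GABA and control libraries did not overlap, as in 92.5% of all tested genes (46.7% with GABA below control and 45.8% with GABA above it). By the test, 98.7% of tested genes passed, 51.2% lower and 47.6% higher with GABA. Since the 8 genes were picked on this comparison, nothing is read from their count. The 8 genes together held 0.359% to 0.374% of counts in GABA libraries, against 0.525% to 0.593% in control libraries. SQSTM1 supplied most of them, 67.9% to 68.4% in GABA libraries against 74.9% to 75.7% in control libraries. As in any bulk RNA measurement, fewer cells with a transcript and less transcript per cell cannot be told apart.

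**Figure D1:**
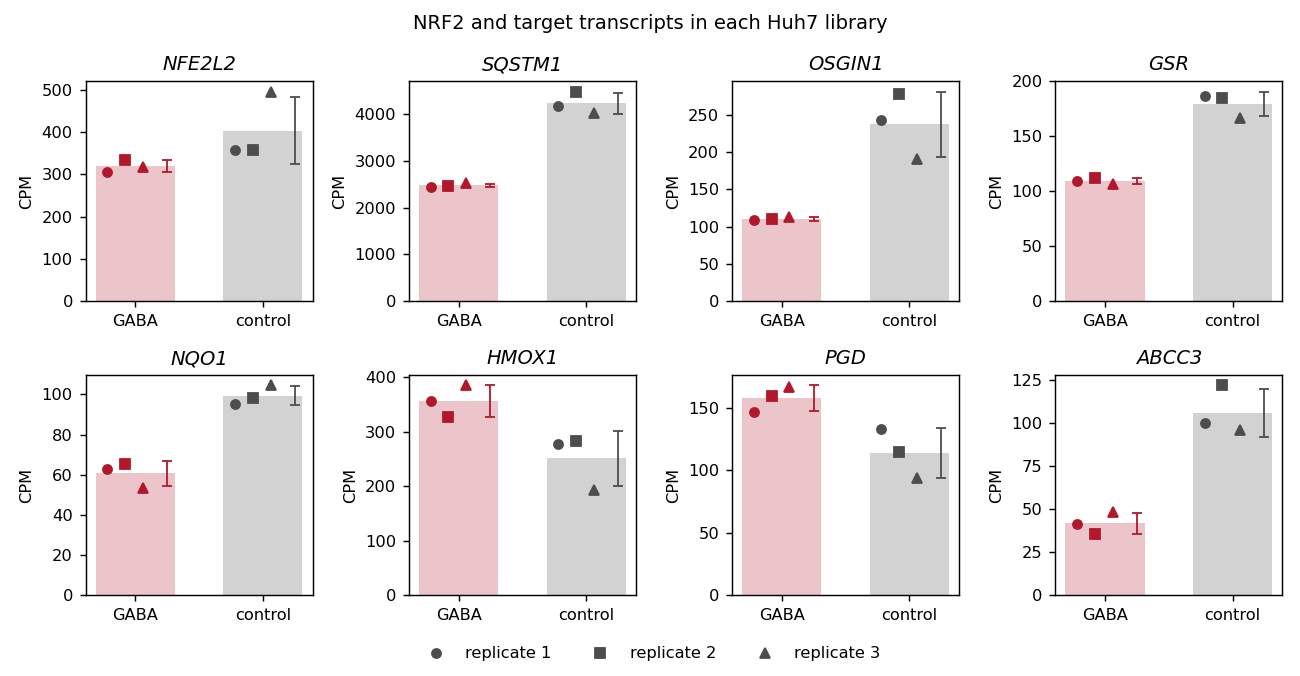
Each panel shows 1 gene in CPM (read counts scaled to a common library total over the listed genes; each axis starts at 0), with points for the 3 GABA and 3 control libraries, bars for the group means and error bars for the SD. The groups are apart in every panel, with GABA lower in 6 genes and higher in HMOX1 and PGD, and control replicate 3 is the highest control for NFE2L2 and NQO1 and the lowest control for the other 6.

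NFE2L2 (ENSG00000116044) lies on the minus strand of chromosome 2 at chr2:177227595-177392697 (GRCh38, GENCODE release 29). It had 305, 334 and 319 CPM in GABA libraries, and 358, 357 and 496 CPM in control libraries. Control replicates 1 and 2 were almost equal and close above the highest GABA library, while control replicate 3 was far above both. The means were 319 ± 14.4 CPM with GABA and 404 ± 79.9 CPM in control (SD, n = 3 each), a log2 fold change of -0.34 ± 0.11 (SE of the fit). Without control replicate 3 the log2 fold change was -0.17. Of the exon bases of NFE2L2, 20.9% overlap other genes, among them AGPS on the opposite strand, and it is not known whether counting used the strand.

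Partners of NRF2 were mostly not analysed here, since 6 of the 29 genes of a list of its regulators and partners were listed. KEAP1, CUL3, BACH1, MAFF and MAFK were not among them. Of the 6 tested, 3 fell, 2 rose and 1 did not pass, with a median log2 fold change of -0.22, against -0.18 for all tested genes. Genes with little difference are nearly absent, so such medians, here and below, depend strongly on the share of genes that fell. MAFG, a small MAF partner of NRF2, had 259, 247 and 229 CPM in GABA libraries, and 310, 348 and 334 CPM in control libraries. Its log2 fold change was -0.43 ± 0.07 (adjusted p = 0.00044). BTRC, the substrate receptor of another ubiquitin ligase that acts on NRF2, fell by 0.41 on the log2 scale (adjusted p = 0.00086). NFE2L1, the NRF2 relative that controls proteasome genes, had -0.29 ± 0.09 (adjusted p = 0.012), although its groups overlapped, since control replicate 3 had 808 CPM and the GABA libraries had 757 to 814 CPM. EP300, a coactivator, rose by 0.21 ± 0.07 (adjusted p = 0.016). The count of genes of this list that rose was 0 without GABA replicate 2, without GABA replicate 3 or without control replicate 1.

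SQSTM1 (ENSG00000161011, chr5:179806398-179838078, plus strand), which encodes the autophagy receptor p62, had 2447, 2454 and 2517 CPM in GABA libraries. In control libraries it had 4161, 4475 and 4024 CPM. The GABA libraries lay within a narrow band, and the lowest control library was well above all of them. Its log2 fold change was -0.77 ± 0.06, and -0.81 without control replicate 3. It was among the most abundant listed transcripts, above 99.4% of tested genes by mean CPM. MRNIP, on the opposite strand, shares exon bases with it and had 114 ± 3.66 CPM with GABA and 153 ± 7.23 CPM in control (SD, n = 3 each). Exon bases shared with MRNIP or MGAT4B made up 22.0% of SQSTM1.

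The autophagy genes around p62 did not move one way, with 7 lower and 5 higher among 12 tested of 24. MAP1LC3B, the LC3 protein that p62 binds on forming autophagosomes, fell by 0.41 on the log2 scale (adjusted p = 0.0031), or by 0.26 without control replicate 3, and its near copy MAP1LC3B2 makes its counts uncertain. ULK1, the kinase that starts autophagy, had 123, 130 and 123 CPM in GABA libraries, and 166, 179 and 142 CPM in control libraries (log2 fold change -0.37 ± 0.09, adjusted p = 0.0032). GABARAPL1, an LC3 relative, rose by 0.59 ± 0.11 (adjusted p = 0.00087), with 1416 ± 136 CPM with GABA and 937 ± 168 CPM in control (SD, n = 3 each). The count of higher genes was 2 without GABA replicate 2 and 3 without GABA replicate 3.

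GSR (ENSG00000104687, chr8:30678061-30727999, minus strand), the glutathione reductase that regenerates reduced glutathione with NADPH, had 110, 112 and 107 CPM in GABA libraries. In control libraries it had 187, 185 and 167 CPM. Both groups were tight, and the gap between them was wider than either group's range. The log2 fold change was -0.71 ± 0.07, and -0.77 without control replicate 3. None of its exon bases overlap another gene.

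Of other glutathione genes, 9 fell and 2 rose among 11 tested of 27, with a median log2 fold change of -0.27, against 51.2% lower and a median of -0.18 over all tested genes. The count that fell was 6 with DESeq2 and 6 without GABA replicate 2. GCLC, the catalytic subunit of the enzyme that makes the first intermediate of glutathione, had 91.1, 76.0 and 92.8 CPM in GABA libraries. In control libraries it had 115, 112 and 117 CPM, all above the GABA libraries (log2 fold change -0.40 ± 0.09, adjusted p = 0.0021). GCLM, its modifier subunit, was not analysed here. SLC7A11, the cystine importer that feeds this step, had -0.26 ± 0.06 (adjusted p = 0.0025), with 776 ± 26.3 CPM with GABA and 927 ± 31.0 CPM in control (SD, n = 3 each). CBS, which makes cystathionine on the route from homocysteine to cysteine, had -1.14 ± 0.18 (adjusted p = 0.00030), and GLRX2, a mitochondrial glutaredoxin, had -0.40 ± 0.08 (adjusted p = 0.0011). The 2 that rose were GSS, the glutathione synthetase that acts after GCLC, at 0.23, and GGT7, of the gamma-glutamyltransferase family, at 0.37. GGT7 did not pass without GABA replicate 2. Glutathione S-transferases attach glutathione to foreign compounds. On a list of them and related genes, 3 were lower and 2 higher of 5 tested of 21. MGST1, a microsomal transferase, had -0.44 ± 0.12 (adjusted p = 0.0057), and GSTCD, a related gene, rose by 0.52 ± 0.13 (adjusted p = 0.0036). GSTZ1, which also breaks down tyrosine products, had -0.36 ± 0.12 (adjusted p = 0.013) and did not pass without GABA replicate 2.

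The thioredoxin arm, the other NADPH-driven route for reducing protein thiols, had 9 lower and 1 higher among 10 tested of 21 genes (median -0.33). Over all tested genes 51.2% were lower. The count that fell was 6 with DESeq2, and 6 without GABA replicate 2, GABA replicate 3 or control replicate 1. TXNRD1, the cytosolic thioredoxin reductase and a classical NRF2 target, had 6284, 6090 and 6131 CPM in GABA libraries, and 7736, 7587 and 7077 CPM in control libraries. The groups were apart, with a log2 fold change of -0.28 ± 0.06 (adjusted p = 0.0021). TXN, thioredoxin itself, also fell by 0.28 on the log2 scale (adjusted p = 0.0099), or by 0.17 without control replicate 3. TXNIP, which binds and inhibits thioredoxin, had the largest fall of this list, at 413 ± 43.4 CPM with GABA and 931 ± 18.4 CPM in control (SD, n = 3 each; log2 fold change -1.17 ± 0.08). MSRB3, a methionine sulfoxide reductase, had -0.38 ± 0.06 (adjusted p = 0.00036). SRXN1, the sulfiredoxin that repairs overoxidised peroxiredoxins, had 14.9, 13.3 and 14.0 CPM in GABA libraries, and 26.6, 36.8 and 12.1 CPM in control libraries. Control replicate 3 lay below every GABA library for SRXN1. Its log2 fold change of -0.83 ± 0.29 (adjusted p = 0.018) was -0.46 without control replicate 2 (adjusted p = 0.088). Without GABA replicate 2 or GABA replicate 3 its adjusted p was 0.051, and it was 0.084 with DESeq2 and 0.056 with limma-voom. TXNRD3, a reductase known from testis, was the gene that rose, by 0.49 ± 0.09 (adjusted p = 0.00097). Of the enzymes that remove superoxide and hydrogen peroxide, CAT (catalase), SOD1 and SOD2 were the 3 tested of the 8 on that list, and all 3 fell, at -0.36, -0.28 and -0.29.

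NQO1 (ENSG00000181019, chr16:69706996-69726951, minus strand), the quinone reductase and the usual reporter of NRF2 activity, had 63.1, 65.5 and 53.5 CPM in GABA libraries. In control libraries it had 95.4, 98.2 and 105 CPM. Every control library was above every GABA library, and control replicate 3 was the highest. The log2 fold change was -0.71 ± 0.10, and -0.68 without control replicate 3. Of its exon bases, 17.7% overlap a noncoding gene on the opposite strand, which was not analysed here.

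Among other enzymes that reduce quinones and carbonyls or conjugate foreign compounds, 6 were lower and 3 higher of 9 tested of 32 (median -0.27). ALDH3B1, an aldehyde dehydrogenase, had 73.9, 61.0 and 73.4 CPM in GABA libraries, and 155, 162 and 149 CPM in control libraries, which gave -1.16 ± 0.09 (adjusted p = 2.5e-06). NQO2, the relative of NQO1, had -0.27 ± 0.06 (adjusted p = 0.0029). CBR1, a carbonyl reductase, had -0.44 ± 0.11 (adjusted p = 0.0043). AKR1C1, an aldo-keto reductase often used as an NRF2 marker, had the lowest log2 fold change of the list at -1.70, but it averaged 1.76 ± 0.605 CPM with GABA and 5.73 ± 0.987 CPM in control (SD, n = 3 each), and near-identical copies make its counts uncertain. The 3 that rose were AKR7A2, EPHX2 and ALDH7A1. EPHX2 did not pass without GABA replicate 3, nor ALDH7A1 without GABA replicate 1, and the log2 fold change of ALDH7A1 was 0.25, or 0.16 without control replicate 3.

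PGD (ENSG00000142657, chr1:10398592-10420144, plus strand), phosphogluconate dehydrogenase, makes NADPH in the oxidative part of the pentose phosphate pathway. It had 147, 160 and 167 CPM in GABA libraries, and 134, 115 and 93.9 CPM in control libraries. The groups did not overlap, but the lowest GABA library was only a little above control replicate 1. Its log2 fold change was 0.47 ± 0.11, and 0.34 without control replicate 3. TALDO1, of the same pathway, was not analysed here. PGLS, which also acts in the pathway, rose by 0.25 ± 0.08, or by 0.16 without control replicate 3. TKT, the transketolase, had 1169 ± 19.5 CPM with GABA and 1382 ± 126 CPM in control (SD, n = 3 each; log2 fold change -0.24 ± 0.07, adjusted p = 0.0078). Of the 8 tested genes of the NADPH list, 6 fell and 2 rose (median -0.32). IDH1, the cytosolic isocitrate dehydrogenase, had the largest fall at -0.84 ± 0.09 (adjusted p = 2.4e-05). NADK2, the mitochondrial NAD kinase, and ME1, the malic enzyme that is an NRF2 target, had -0.47 ± 0.10 and -0.60 ± 0.13.

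HMOX1 (ENSG00000100292, chr22:35380361-35394214, plus strand), the inducible heme oxygenase, had 356, 327 and 385 CPM in GABA libraries. In control libraries it had 278, 283 and 194 CPM. Control replicate 3 was well below the other 2 control libraries, which were nearly equal and themselves below every GABA library. The log2 fold change was 0.50 ± 0.12, and 0.34 without control replicate 3. No exon base of HMOX1 overlaps another gene.

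The genes that handle the products of heme breakdown were lower. BLVRA and BLVRB, the biliverdin reductases that act after heme oxygenase, had -0.35 and -0.32, and FTL and FTH1, the ferritin chains that store the released iron, had -0.43 and -0.40. FTL had 5758, 6021 and 5705 CPM in GABA libraries, and 7867, 7651 and 8109 CPM in control libraries (adjusted p = 0.00012). FTH1 had 1744, 1694 and 1729 CPM in GABA libraries, and 2489, 2649 and 1666 CPM in control libraries. The groups overlapped for FTH1, because control replicate 3 was below all GABA libraries (adjusted p = 0.013). Both ferritin genes have many processed copies in the genome, and their counts are uncertain. PIR, an iron-binding nuclear protein and NRF2 target, had 15.5 ± 1.75 CPM with GABA and 34.9 ± 2.14 CPM in control (SD, n = 3 each; log2 fold change -1.17 ± 0.13, adjusted p = 2.7e-05). FLVCR1, a heme exporter, had -0.60 ± 0.10. Of 13 tested genes of the 25 on the heme and iron list, 10 fell and 3 rose, with a median of -0.35. TFRC, the transferrin receptor, UROS and ALAS1, both of heme synthesis, rose by 0.31, 0.29 and 0.25. BLVRA and BLVRB each lost their calls without GABA replicate 2 and without GABA replicate 3, BLVRA also without control replicate 3 (log2 fold change -0.21) and BLVRB also without control replicate 2.

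**Figure D2:**
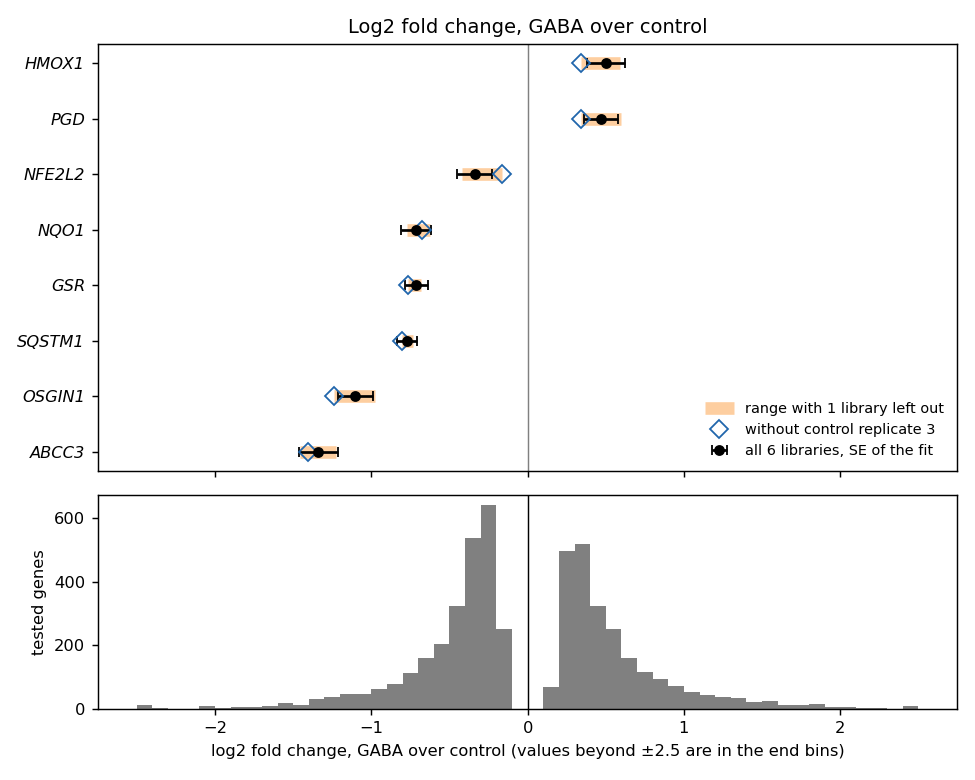
The upper panel shows the log2 fold change of each gene, GABA over control, with the SE of the fit, the range over fits with 1 library left out and the value without control replicate 3; the lower panel is a histogram of the same quantity for the 4981 tested genes. NFE2L2 moved most in proportion, to -0.17, no gene crossed 0, and the gap in the histogram around 0 shows that genes with little difference are nearly absent from the listed genes.

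ABCC3 (ENSG00000108846, chr17:50634777-50692252, plus strand), an exporter of glucuronide and glutathione conjugates, had the lowest log2 fold change of the 8 genes. It had 41.4, 35.7 and 48.0 CPM in GABA libraries, and 99.7, 122 and 95.5 CPM in control libraries. No library came near the gap between the groups. The log2 fold change was -1.34 ± 0.12, lower than in all but 1.89% of tested genes, and -1.41 without control replicate 3. Of 12 other exporters of foreign compounds, 3 were tested. ABCC2, the exporter on the bile side of hepatocytes, fell to 394 ± 22.9 CPM with GABA, against 524 ± 16.9 CPM in control (SD, n = 3 each; log2 fold change -0.41 ± 0.07, adjusted p = 0.00031). ABCC4, which exports bile acids and nucleotides, had -0.33 ± 0.07, and ABCC10 rose by 0.73 ± 0.10 (adjusted p = 0.00014).

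OSGIN1 (ENSG00000140961, chr16:83948282-83966332, plus strand), a growth inhibitor induced by oxidative stress, had 108, 110 and 113 CPM in GABA libraries. In control libraries it had 243, 278 and 190 CPM. The GABA libraries were nearly equal, and the control libraries were spread, with a coefficient of variation of 2.10% in GABA libraries and 18.5% in control libraries. The log2 fold change was -1.10 ± 0.11, and -1.24 without control replicate 3. A noncoding gene on the same strand overlaps 13.9% of the exon bases of OSGIN1 and had 2.93 ± 0.801 CPM with GABA and 0.799 ± 0.0944 CPM in control (SD, n = 3 each).

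Promoter sequence was examined for the genes above, since they are grouped by a common factor. RefSeq windows of 300 bases on GRCh38.p14 ran from 250 bases before to 50 bases after a transcript start. Those of NFE2L2, SQSTM1, OSGIN1, NQO1 and PGD were used, in 8 windows. HMOX1 and ABCC3 had no window. GSR was not searched, because windows on its chromosome were left out for these genes and for the pathway genes. The core antioxidant response element was searched as TGACNNNGC and the AP-1 type element, which the NRF2 and BACH1 families also bind, as TGANTCA, on both strands. Of all 35116 windows in the table, 13.3% held TGACNNNGC and 7.71% held TGANTCA, and 197 windows held both with overlapping bases. PGD, higher with GABA, was the gene among the 5 with TGACNNNGC, on the opposite strand and starting 201 bases before the RefSeq transcript start of its window. OSGIN1, lower with GABA, was the gene with TGANTCA, starting 97 bases before the RefSeq transcript start of its window. Both of these starts and both sites lie inside the GENCODE gene coordinates given above, not at their ends. The windows of NFE2L2, SQSTM1 and NQO1 held neither. Sequence farther than 250 bases before these starts was not searched, so a lack of either element in these genes cannot be read from the windows. TXNRD1, outside the 8 genes, held TGACNNNGC in both of its windows. Of 111 windows of tested pathway genes, 15.3% held TGACNNNGC and 3.60% held TGANTCA. The set of all windows kept the chromosome of GSR, so its shares and these come from unlike sets. Capitals mark the match in the lines below, which show first the sites and then the full windows of OSGIN1 (chr16:83952990-83953289, plus strand) and PGD (chr1:10398814-10399113, plus strand), the 2 genes with a match that differed from control in opposite directions.
OSGIN1 site: gggcccctgcTGACTCAcgcttatgaa
PGD site: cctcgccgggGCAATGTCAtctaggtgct
TXNRD1 site 1: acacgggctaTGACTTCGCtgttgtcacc
TXNRD1 site 2: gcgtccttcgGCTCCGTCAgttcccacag
TXNRD1 site 3: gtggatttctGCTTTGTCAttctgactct
OSGIN1 window: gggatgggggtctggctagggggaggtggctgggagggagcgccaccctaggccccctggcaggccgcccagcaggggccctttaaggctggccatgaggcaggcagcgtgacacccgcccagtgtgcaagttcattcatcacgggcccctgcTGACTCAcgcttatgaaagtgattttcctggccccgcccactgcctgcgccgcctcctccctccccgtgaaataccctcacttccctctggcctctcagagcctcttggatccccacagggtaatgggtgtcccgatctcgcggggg
PGD window: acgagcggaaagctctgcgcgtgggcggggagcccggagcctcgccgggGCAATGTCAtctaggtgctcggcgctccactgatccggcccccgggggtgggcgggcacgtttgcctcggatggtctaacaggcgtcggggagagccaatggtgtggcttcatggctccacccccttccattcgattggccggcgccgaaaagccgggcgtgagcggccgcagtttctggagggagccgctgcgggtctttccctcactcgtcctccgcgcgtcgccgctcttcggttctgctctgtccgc

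Across the 11 role lists around NRF2, 243 other genes were named, 89 were listed and 88 were tested. Of these, 65 fell, 22 rose and 1 did not pass, with a median log2 fold change of -0.30. Over all tested genes, 51.2% fell and 47.6% rose, 98.7% passed in either direction, and the median was -0.18. The lower share was 73.9% in the lists, and the number that fell was 64 without control replicate 3 and 58 with DESeq2 size factors. In the list of further NRF2 targets, 7 fell and 1 rose of 8 tested of 24. TRIM16L and TRIM16, which share long stretches of sequence so that their counts are uncertain, had -0.96 ± 0.10 and -1.02 ± 0.13 (adjusted p = 2.4e-05 and 8.2e-05), and SLC6A9, a glycine transporter, had -0.73. The number that fell in that list was 4 without GABA replicate 1, without GABA replicate 2 or without control replicate 1.

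**Figure D3:**
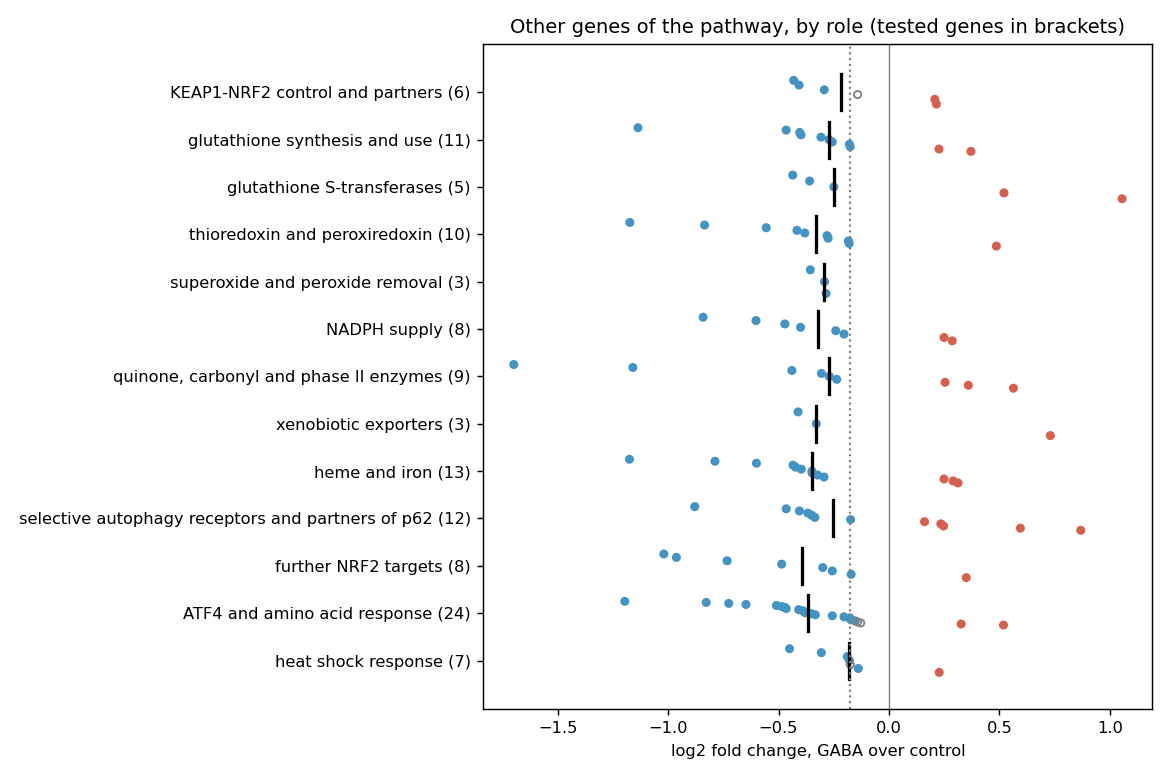
Points are tested genes outside the 8, placed by log2 fold change (GABA over control) in 13 role lists, blue where they fell, red where they rose and open where they did not pass; black bars are list medians and the dotted line is the median of all tested genes. Each list median lies below 0, all 3 superoxide and peroxide genes are blue, and the autophagy list is the most evenly split of the larger lists.

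Several NRF2 targets are also targets of ATF4, the factor of the amino acid response. Of 24 tested ATF4 list genes, 20 fell, 2 rose and 2 did not pass (median -0.37), against 51.2% lower over all tested genes. The count that fell was 16 with DESeq2, and 16 without GABA replicate 1 or GABA replicate 2. SLC7A11, CHAC1, ATF3, PHGDH, MTHFD2, SLC3A2 and SESN2 stand in both kinds of list. SLC3A2 and PHGDH lost their calls with DESeq2 and without each of GABA replicates 1, 2 and 3. ATF3 lost its call without control replicate 3. ATF4 had 825, 845 and 804 CPM in GABA libraries, and 946, 953 and 851 CPM in control libraries, a log2 fold change of -0.15 ± 0.06 (adjusted p = 0.033). Its call was lost with each library left out in turn, except control replicate 3, with DESeq2 size factors (adjusted p = 0.11), with scaling to library size alone (0.060), with DESeq2 (0.13) and with the replicate number as a block (0.053). DDIT3, the stress factor CHOP, and DDIT4, an inhibitor of mTORC1, had -0.83 ± 0.06 and -1.20 ± 0.12, and SLC38A2, an amino acid importer, had -0.51 ± 0.06 (adjusted p = 6.8e-05). The heat shock list had 5 lower, 1 higher and 1 not passing of 7 tested of 15 (median -0.18). HSPA4L fell by 0.45 on the log2 scale and DNAJB1 rose by 0.23 (adjusted p = 0.0017 and 0.0043). HSPD1, the mitochondrial chaperonin, had -0.19 (adjusted p = 0.017) and did not pass without GABA replicate 1, GABA replicate 3 or control replicate 1. The lower count of the heat shock list was 2 with DESeq2 size factors and 1 without control replicate 1, and 2 without GABA replicate 1 or GABA replicate 2.

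Ratios of counts between 2 genes of 1 library do not depend on how libraries are scaled. HMOX1 over SQSTM1 was 0.146, 0.133 and 0.153 in GABA libraries, and 0.0669, 0.0633 and 0.0481 in control libraries. PGD over GSR was 1.34, 1.42 and 1.57 in GABA libraries, and 0.715, 0.621 and 0.563 in control libraries. In both ratios each GABA library was above each control library, as the choice of HMOX1 and PGD brings about. SQSTM1 over NFE2L2 was 8.01, 7.34 and 7.90 in GABA libraries, and 11.6, 12.5 and 8.11 in control libraries. Control replicate 3 was close to the GABA libraries in that ratio. NQO1 over GSR averaged 0.553 ± 0.0458 with GABA and 0.556 ± 0.0619 in control (SD, n = 3 each), with the groups intermingled. ABCC3 over NQO1 was 0.656, 0.544 and 0.898 in GABA libraries, and 1.04, 1.24 and 0.914 in control libraries, and the gap between the groups was small.

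**Figure D4:**
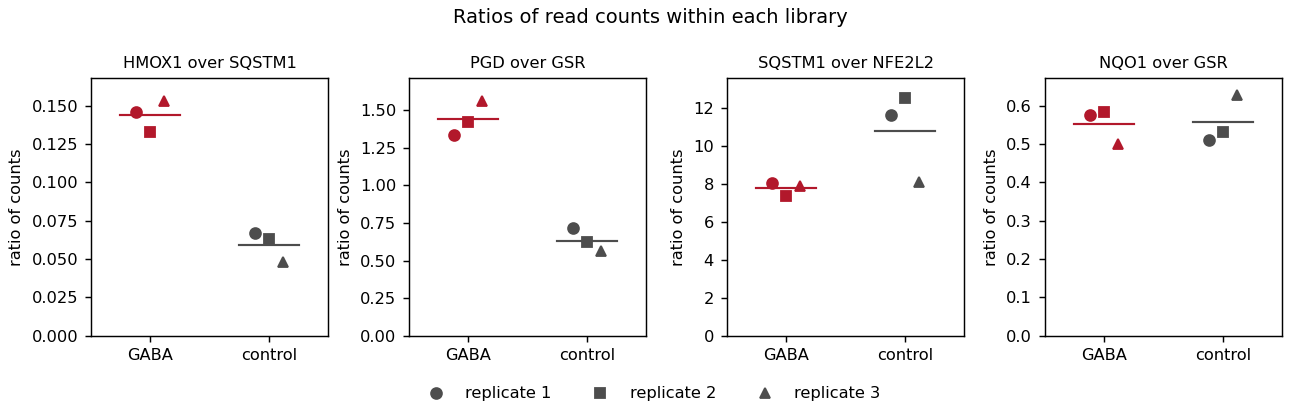
Ratios of read counts between 2 genes in each GABA and control library (points, with lines at the group means; axes start at 0). HMOX1 over SQSTM1 and PGD over GSR are apart between the groups, SQSTM1 over NFE2L2 of control replicate 3 lies beside the GABA libraries, and NQO1 over GSR is intermingled.

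Levels of the 8 genes were compared per kilobase of annotated exon, with all GENCODE exons of a gene merged. The transcripts used by these cells may be shorter, so the orders below depend on the annotation. In GABA cells the order was SQSTM1 (323 CPM per kilobase), HMOX1 (148), NFE2L2 (53.4), PGD (53.2), OSGIN1 (31.9), GSR (29.1), NQO1 (18.6) and ABCC3 (4.34). Among neighbours in that order, the libraries of NFE2L2 and PGD overlapped and the others did not. In control cells the order was SQSTM1 (551 CPM per kilobase), HMOX1 (105), OSGIN1 (68.5), NFE2L2 (67.5), GSR (47.7), PGD (38.5), NQO1 (30.5) and ABCC3 (10.99). There the libraries of OSGIN1 and NFE2L2, of GSR and PGD and of PGD and NQO1 overlapped.

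Within the groups the 8 genes did not vary alike. In GABA libraries the coefficient of variation ran from 1.56% for SQSTM1 to 14.9% for ABCC3, and in control libraries from 4.72% for NQO1 to 20.02% for HMOX1. In control replicate 3, NFE2L2 was 0.31 above its group mean on the log2 CPM scale. HMOX1, OSGIN1 and PGD were 0.36, 0.30 and 0.27 below theirs in the same library, with GSR, ABCC3 and SQSTM1 0.10, 0.14 and 0.07 below and NQO1 0.07 above. The library with the most NFE2L2 thus had the least of 6 of the 7 targets among controls. It was the lowest control for 41.5% of the pathway genes that fell and for 59.1% of those that rose, against 31.5% and 55.5% for all tested genes in each direction. It was the highest control for 43.1% of the pathway genes that fell and for 27.3% of those that rose, against 52.4% and 26.6%. The mitochondrial share was highest in that library, and its part in these values was not tested.

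**Figure D5:**
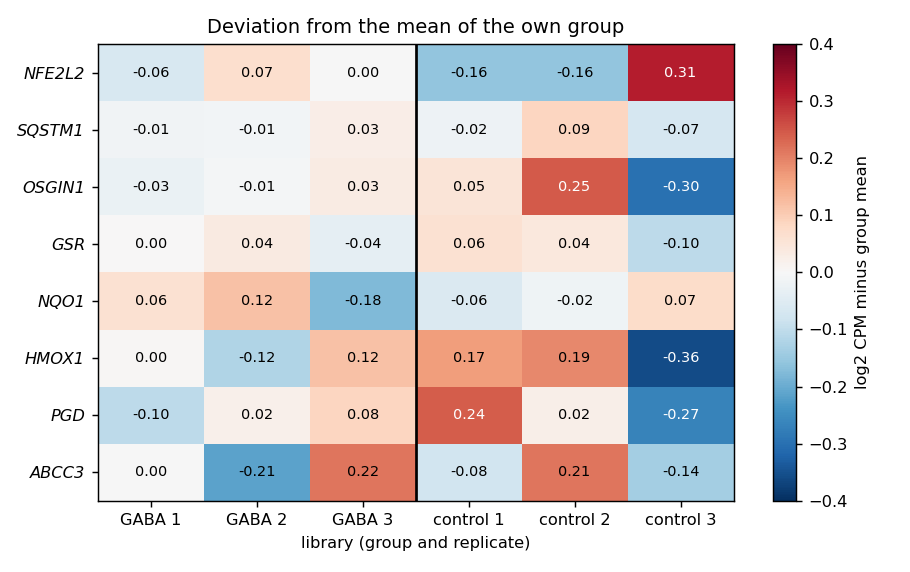
Each cell gives the log2 CPM of a gene in a library minus the mean of its own group, for the 3 GABA and 3 control libraries, red above and blue below the mean. Control replicate 3 stands out, with NFE2L2 0.31 above its mean and HMOX1, OSGIN1 and PGD lowest; ABCC3 and NQO1 vary most among GABA libraries.

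A comparison with the 3062 other genes that averaged 50 CPM or more followed. Those closest to NFE2L2 by Pearson correlation of log2 CPM over the 6 libraries were AP3S1 (0.998), HDAC9 (0.995) and NAP1L1 (0.993), a description with no test. Each had its highest level in control replicate 3, as NFE2L2 did, with NAP1L1 at 2558 CPM there, against 1548 to 1694 CPM in GABA libraries. Those closest to SQSTM1 were LUCAT1 (0.999), a noncoding RNA, RFLNB (0.998) and TRIM38 (0.998). LUCAT1 had 72.2, 70.5 and 72.9 CPM in GABA libraries, and 126, 138 and 125 CPM in control libraries. With 6 libraries in 2 separated groups high correlations are common, and 13.2% and 20.4% of the genes compared had one above 0.9 with NFE2L2 and with SQSTM1. These shares do not give how often values as high as those of the named genes occur.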

How the data were processed

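RNA of 6 Huh7 libraries (3 GABA, 3 control, 24 h) was measured by sequencing. The deposited values are whole-number read counts per Ensembl gene. Per the submitters' processing notes, CASAVA 1.8, Bowtie 0.12.2 and build hg38 were used; the counting program, annotation, strand setting and choice of listed genes are not given in the sources used here. Of 5187 identifiers, 5173 took their symbol from a name table and 14 from GENCODE release 29, which also gave exon lengths and overlaps.

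edgeR 4.0.16 in R 4.3.3 was fitted to all listed genes (filterByExpr, minimum count 10 and total 15; TMM; robust quasi-likelihood F test, GABA over control; Benjamini-Hochberg, threshold 0.05). CPM are TMM-scaled to the listed genes, whose totals are not library depths. The filter removed 206 genes and kept the 8 described. The SE is the absolute log2 fold change divided by the square root of F. Tests were checked on simulated counts in which most genes were unchanged and all had the same variability setting. That check does not measure the error rate in these preselected genes. Alternatives used DESeq2 1.42.0, limma-voom (limma 3.58.1), other scalings and filters, the replicate block and each library left out. Tables and plots were made in Python 3.11.15 (pandas 2.3.3, matplotlib 3.10.9).

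The 8 genes, the role lists and the alternatives were chosen with earlier results of these data known. Pathway genes were named by rank of p among called genes with at least 20 mean CPM, up to 3 per list, with a fixed set always named; the remaining names were chosen after their values were seen. Some genes of the lists are counted but not reported here by name.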

Additional observations from a re-analysis of the deposited data

How the results depend on the processing

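Each of the 8 genes kept its direction under all 15 alternatives, which the choice of genes and of listed genes largely fixes. With 1 library left out, log2 fold changes ran from -0.42 to -0.17 for NFE2L2, -0.81 to -0.73 for SQSTM1, -1.24 to -0.98 for OSGIN1, -0.77 to -0.69 for GSR, -0.77 to -0.63 for NQO1, 0.34 to 0.59 for HMOX1, 0.34 to 0.60 for PGD and -1.45 to -1.23 for ABCC3. Over all tested genes 2369 rose and 2549 fell, and with DESeq2 size factors 2373 rose and 2050 fell. The pathway genes that fell numbered 51 to 64 and those that rose 16 to 21 with 1 library left out, and 54 and 22 with DESeq2. For the 45 pathway genes named by rank of p or from the fixed set, 655 of 675 values kept call and direction, 20 lost the call and 0 reversed. Naming by lowest p largely fixes this. Other genes named above that lost calls, EP300, BLVRA, BLVRB, GGT7, EPHX2, ALDH7A1, SLC3A2, PHGDH and ATF3, are not in this count. The replicate block gave 63 lower and 22 higher pathway genes. Same-numbered libraries did not deviate together (correlations 0.0007, -0.091 and -0.036), so the number is not taken as a pairing, and with the block NFE2L2 had -0.32. Listed genes were preselected, so no alternative shows how many genes did not respond.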
